A study of Sus scrofa with 18 samples.

Results

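Among the H3K27ac peaks of pregnant circular muscle, 301 regions were also present in the longitudinal muscle of pregnant gilts and absent from the circular muscle of cyclic gilts. They were selected on the measured peak lists. A peak of GD15M_CM on chromosomes 1 to 18 or X entered when its fold enrichment over background, written below as over IgG, was at least 4. It also had to share at least 1 bp with a GD15M_LM peak and none with a CD15M_CM peak. The GD15M_CM list holds 79877 H3K27ac peaks, 78855 of them on these chromosomes, and 25160 of those reached a fold enrichment of 4. The 301 pregnant-shared regions are 1.2% of the 25160. Of the others, 17577 overlapped a peak in both of the other lists, 3705 overlapped a CD15M_CM peak only, and 3577 overlapped neither.

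GD15M_CM and GD15M_LM are circular and longitudinal muscle of the myometrium on day 15 of pregnancy, and CD15M_CM is circular muscle on day 15 of the oestrous cycle. All 3 were taken at the mesometrial side of the uterus of Yorkshire gilts, with 2 gilts in each group, and profiled by CUT&Tag with antibodies to H3K27ac and H3K4me3 and with an IgG control. The authors pooled both gilts of a group before calling peaks, so a list gives 1 value per region with no spread between animals, no difference between groups could be tested from the lists, and pregnancy cannot be told apart from the gilts sampled. The study's own comparison of regions over replicates was not used here, so the presence or absence of a region describes the pooled lists and is not a tested difference. That comparison reported far fewer H3K27ac regions differing between GD15M_CM and CD15M_CM than were selected here. It listed no such region within 3 kb of the starts of genes that differed in expression between them. The labels do not say whether both pregnant layers came from the same gilts, though the study treated the layers as pairs in its RNA-seq, and cyclic longitudinal muscle is not among the groups.

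H3K27ac is an acetyl mark laid on nucleosomes at active promoters and enhancers. H3K4me3 is a methyl mark concentrated at the starts of transcribed or poised genes, so an H3K27ac region that lacks it is usually read as a candidate distal element. In the uterus of the pig, the conceptus secretes interferons around the time of implantation, and the uterine wall holds resident immune cells as well as muscle.

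The fold enrichment that selected the regions ran from 4.0 to 18.3 in GD15M_CM, with a median of 4.42 and quartiles of 4.16 and 4.92. Most of them therefore stood close to the threshold: 171 lay below 4.5 and 233 below 5, while 68 reached 5 and 12 reached 8. The nearest peaks left out by the threshold had fold enrichments of 3.999, 3.998 and 3.996, and 395 peaks of the same overlap pattern lay between 3.5 and 4. At any fold enrichment, 2388 GD15M_CM peaks had this pattern.

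In GD15M_LM the overlapping peaks had a fold enrichment of 2.17 to 12.7, with a median of 3.71. Fold enrichments of lists made from different libraries are not on a common scale, so ranks were used beside them: peaks were ordered by fold enrichment list by list, and the percentile gives a peak's place in that order. The GD15M_LM peaks at the pregnant-shared regions had a median percentile of 47.0, against 77.8 at the regions that also overlapped a CD15M_CM peak. Longitudinal peaks covered at least 50% of the region at 187 of them.

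Absence from the cyclic list did not always mean distance from it. A CD15M_CM H3K27ac peak lay within 1 kb of 122 of the 301 regions (40.5%) and within 200 bp of 22, and the median gap was 1426 bp. At 19 regions the overlapping longitudinal peak itself reached a CD15M_CM peak. At the other end, 70 regions had no CD15M_CM peak within 10 kb and 11 had none within 100 kb. Since the weakest peak in the cyclic list has a fold enrichment of 1.63, absence from it means below what the caller listed at the depth of those libraries, which the lists do not hold. By number of H3K27ac peaks the CD15M_CM list was the longest, at 82037, and the GD15M_LM list the shortest, at 57010.

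**Figure D1:**
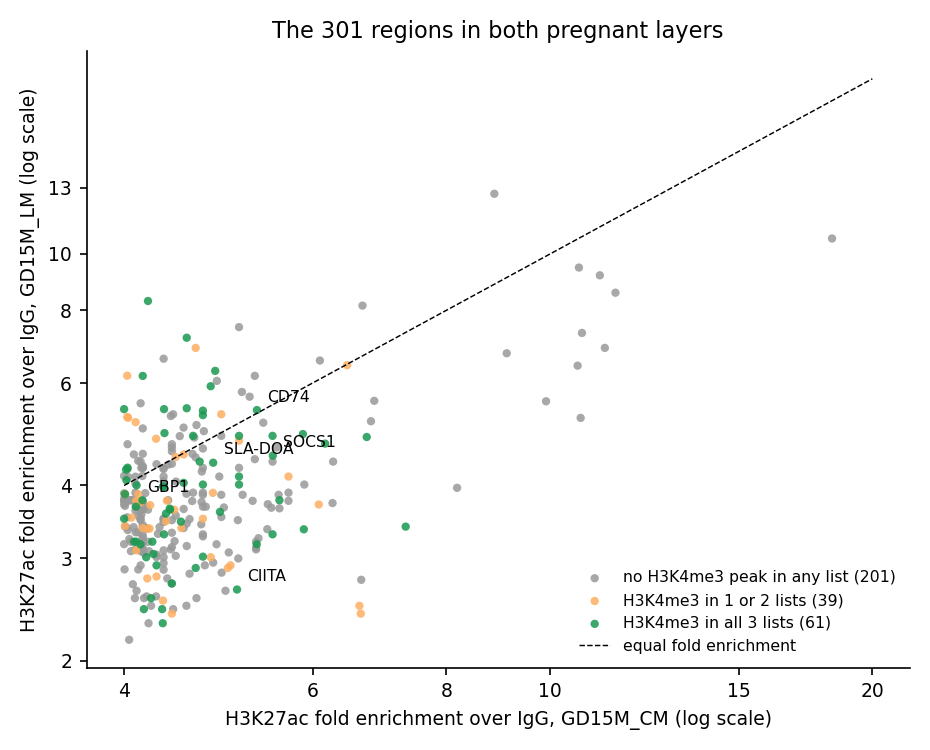
Each point is 1 of the 301 regions, with its H3K27ac fold enrichment over IgG in GD15M_CM on the x axis and the highest fold enrichment of an overlapping GD15M_LM peak on the y axis, both on log scales, coloured by how many of the 3 H3K4me3 lists overlap it. Most points sit below 5 in circular muscle, where selection set a floor of 4 that longitudinal muscle did not have, and the 12 points at 8 or above are all grey, with no H3K4me3.

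The strongest regions were short and mostly far from gene ends, though 4 of the 12 at a fold enrichment of 8 or above lay inside a gene body. The first of them, inside the non-coding gene LOC110257764 at chrX:1084892-1085562, had a fold enrichment of 18.3 in GD15M_CM and 10.6 in GD15M_LM, and its nearest CD15M_CM peak was 330373 bp away. The region at chr18:30920251-30920617, inside LOC106506806, had 11.5 and 8.58. The region at chr9:112866128-112866515 had 11.2 and 6.89, and its nearest gene, LOC110262302, was 60108 bp away. All 3 were far from any cyclic peak and from both ends of the nearest gene.

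The next regions were likewise distal for the most part. One at chr5:86514514-86514882 had a fold enrichment of 11.13 in GD15M_CM and 9.19 in GD15M_LM and lay 178920 bp from NEDD1, which encodes a centrosome protein that recruits gamma-tubulin. One at chr11:51443672-51444038 had 10.7 and 5.23 and lay 21926 bp from RBM26, an RNA-binding protein gene. One at chr14:18044988-18045370 had 10.6 and 9.48 and lay inside GALNTL6, a gene of the polypeptide GalNAc transferase family. These regions were 369, 367 and 383 bp long.

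CTDP1 and COQ9 were the exceptions in this set. The region at chr1:145813680-145814609 had a fold enrichment of 10.7 in GD15M_CM and 7.32 in GD15M_LM and stood 2007 bp from an end of CTDP1, which encodes a phosphatase of the RNA polymerase II tail. The region at chr6:19379384-19379978, inside COQ9, a gene of coenzyme Q synthesis, had 10.6 and 6.43. CD15M_CM peaks lay 1145 bp from the first and 2482 bp from the second, so both sit in neighbourhoods that carried H3K27ac in the cyclic muscle too.

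The remaining regions at 8 or above lay near TRIM2, LOC110260451, LOC106505840 and LOC106505529. The LOC110260451 region, at chr4:26331913-26332296, was the most isolated of all 301, with 369424 bp to the nearest gene end and 1488404 bp to the nearest CD15M_CM peak. The LOC106505529 region, at chr12:57291499-57292114, had the highest longitudinal value of all 301: 12.7 in GD15M_LM against 8.87 in GD15M_CM. After it, the highest longitudinal values belonged to the LOC110257764, GALNTL6, NEDD1 and LOC106506806 regions described above.

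None of the 12 regions at 8 or above overlapped an H3K4me3 peak in any of the 3 lists. Their median length was 383.5 bp, and 8 of them were between 358 and 388 bp long. Among the 17577 peaks present in all 3 lists, 890 reached the same fold enrichment, and these had a median length of 1937 bp, with 0.899% lacking H3K4me3. Of the 12, 10 had no CD15M_CM peak within 10 kb and 9 ranked above the 90th percentile in GD15M_LM. Only 1 peak that overlapped neither other list reached 8, and 0 of those that overlapped CD15M_CM alone did. The list does not say how many reads stand behind these short peaks in each gilt, and whether 1 gilt of the pool carried them was not tested.

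**Figure D2:**
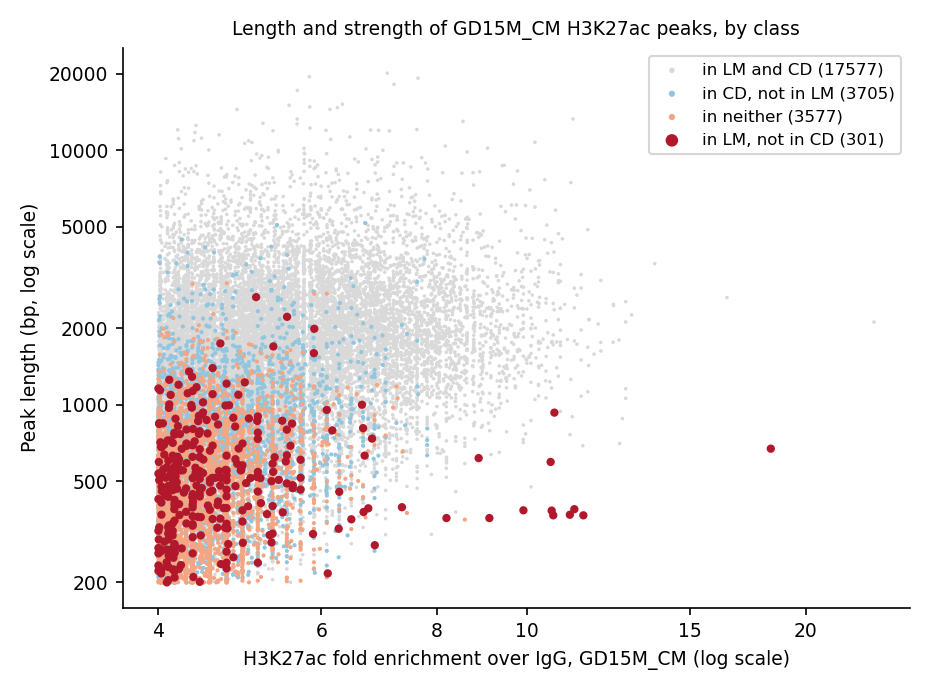
H3K27ac fold enrichment in GD15M_CM (x axis, log scale) against peak length in bp (y axis, log scale) for the 25160 peaks of fold enrichment 4 or more, coloured by their overlap with the other lists. The 301 pregnant-shared regions (dark red) have a median length of 505 bp, and the 12 at 8 or above lie apart from the long peaks of like strength that all 3 lists hold.

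The 301 regions as a whole were short and scattered over the genome. The median length was 505 bp, from 200 to 2646 bp, against 1450 bp for peaks in all 3 lists, 614 bp for those shared with CD15M_CM alone and 437 bp for those in neither, and 147 of the 301 (48.8%) were under 500 bp, against 20.0% of all 25160 peaks. Together they covered 171913 bp. The regions fell near 287 distinct genes, 246 of the 301 nearest genes being protein-coding, and 274 regions stood alone when those less than 50 kb apart were joined. Only 13 clusters held more than 1 region.

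The cluster with most members held 3 regions within 22.2 kb inside CTDSPL, a small phosphatase gene on chromosome 13, with fold enrichments of 5.31, 4.43 and 4.36 in GD15M_CM and 3.11, 4.71 and 4.07 in GD15M_LM. None of the 3 overlapped H3K4me3, and their nearest CD15M_CM peaks lay 888 to 1654 bp away. The other clusters held 2 regions each. Of these, the highest fold enrichments were at LOC106505529 (8.87), at LOC110261499 and LOC100153139 (6.65), at EFCAB14 and ATPAF1 (5.49), and at INTS4 and THRSP (5.12).

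Most of the regions lay away from gene ends. Of the 301 regions, 82 lay within 3 kb of an end of a RefSeq gene (27.2%, 95% Wilson interval 22.5 to 32.5%), against 48.8% of all 25160 peaks. The gene models used here carry no strand, so a start and a 3′ end could not be separated. A further 147 (48.8%) lay in gene bodies and 72 (23.9%) outside genes. The share outside genes was 9.55% in peaks of all 3 lists, 15.5% in peaks shared with CD15M_CM alone and 19.6% in peaks in neither. The median distance to a gene end was 10414 bp, and 49 regions (16.3%, against 10.1% of all peaks) lay more than 50 kb from one. Intervals cover counting error over regions only, since regions are not replicates of a group.

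**Figure D3:**
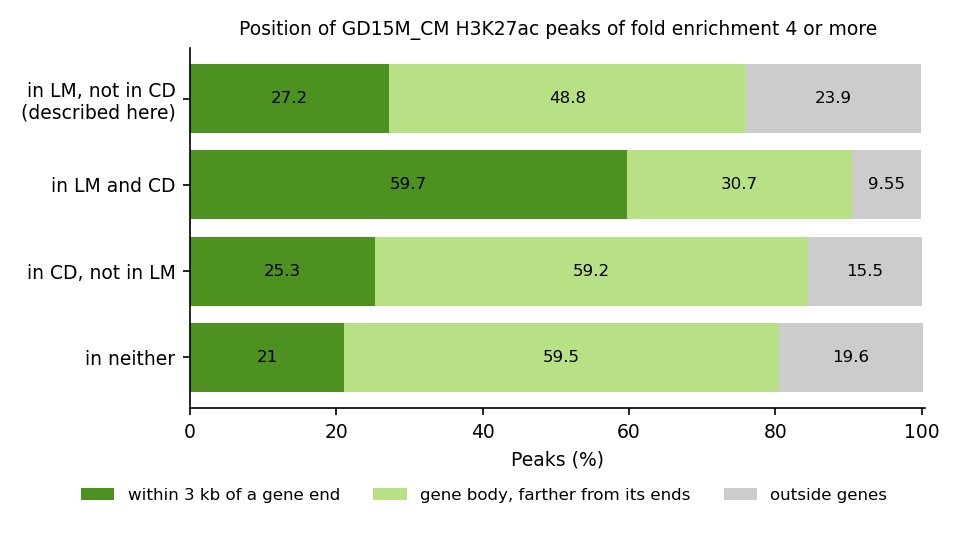
Share of GD15M_CM H3K27ac peaks (x axis, percent) within 3 kb of a gene end, in a gene body beyond that, and outside genes, for the 4 classes of overlap. The pregnant-shared regions have 27.2% near a gene end, close to the 25.3% of peaks shared with CD15M_CM alone and well below the 59.7% of peaks in all 3 lists, and the highest share outside genes (23.9%).

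H3K4me3, which the selection did not use, overlapped a minority of the regions in every group. A GD15M_CM H3K4me3 peak overlapped 84 of the 301 (27.9%, interval 23.1 to 33.2%), against 56.8% of all 25160 peaks. A GD15M_LM peak overlapped 83 (27.6%, 22.8 to 32.9%), against 56.6%. A CD15M_CM peak overlapped 71 (23.6%, 19.1 to 28.7%), against 57.9%. Peaks shared with CD15M_CM alone had shares of 28.8%, 20.0% and 29.7% in the same order, and peaks in neither list had 18.7%, 9.28% and 13.6%.

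The H3K4me3 lists gave mostly the same answer at a region. At 201 regions (66.8%, against 36.7% of all peaks) none of the 3 lists had an H3K4me3 peak, and at 61 (20.3%) all 3 had one. H3K4me3 thus marked the cyclic muscle as well at most of the regions that carried it in pregnancy. Near gene ends 65.9%, 63.4% and 59.8% of the regions overlapped H3K4me3 in GD15M_CM, GD15M_LM and CD15M_CM, against 12.2%, 15.0% and 8.84% in gene bodies.

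At the 61 regions with H3K4me3 in all 3 lists, the strength of that mark could be ranked in each. The percentile was higher in GD15M_CM than in CD15M_CM at 41 of the 61 (67.2%, interval 54.7 to 77.7%), against 46.1% of the 12890 peaks, out of 25160, with the mark in all 3 lists. In peaks that overlapped neither other H3K27ac list it was 57.6%. It was higher in both pregnant lists than in CD15M_CM at 29 (47.5%), against 25.3%. By more than 10 percentile points it was higher in GD15M_CM at 24 and lower at 10. The widest gap, at LOC102160389, gave percentiles of 58.1 in GD15M_CM, 43.8 in GD15M_LM and 2.92 in CD15M_CM. At NFATC2, a transcription factor gene used in T cell activation, 1 H3K4me3 peak over 2 neighbouring regions stood at percentiles of 68.2, 69.4 and 27.03. At ATF7IP, which encodes a cofactor of histone methylation, the percentiles were 93.8, 94.8 and 54.2. In the other direction, the percentiles were 49.9, 76.6 and 84.7 at LOC102166571 and 47.95, 64.6 and 71.2 at COTL1. All of these genes were chosen after their values were seen.

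**Figure D4:**
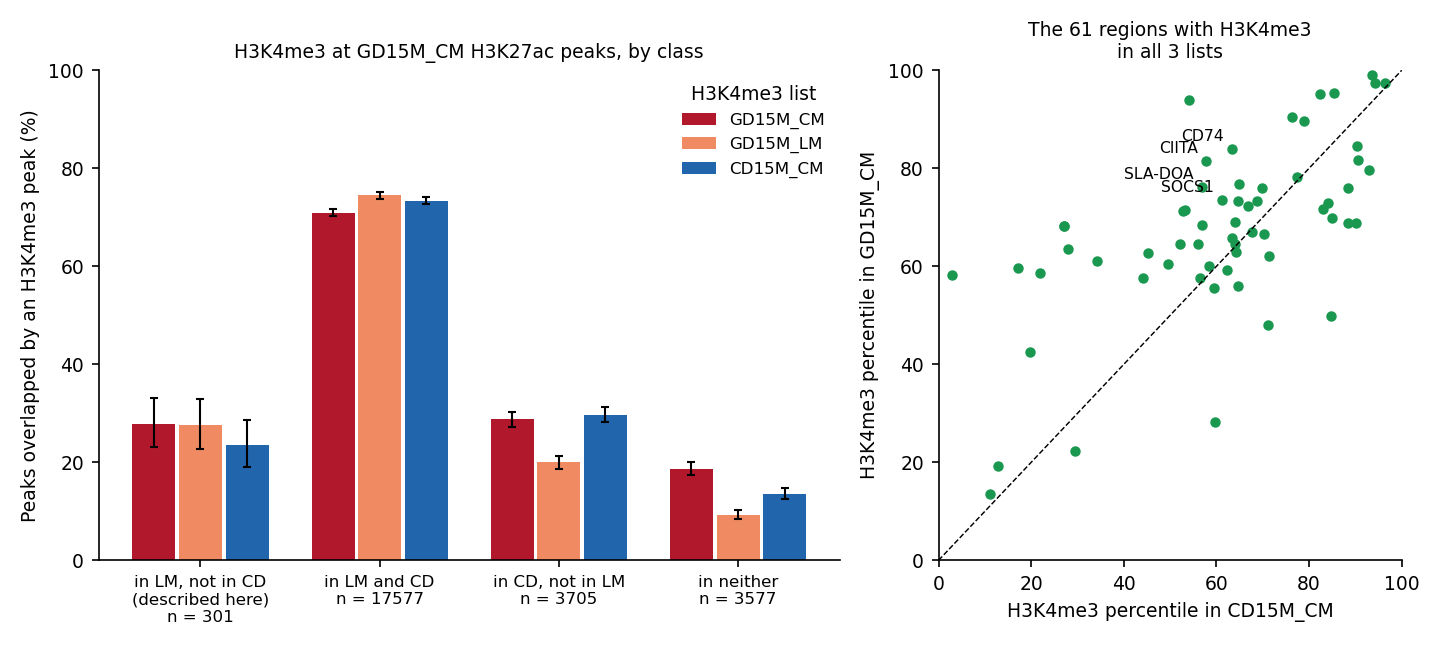
Left, share of GD15M_CM H3K27ac peaks overlapped by an H3K4me3 peak of each group (y axis, percent; bars with 95% Wilson intervals) in the 4 classes of overlap; the pregnant-shared regions reach 27.9%, 27.6% and 23.6%. Right, H3K4me3 percentile in CD15M_CM (x axis) against GD15M_CM (y axis) at the 61 regions with the mark in all 3 lists, 41 of which lie above the dashed line of equal rank.

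Only 8 regions (2.66%, against 0.823% of all 25160 peaks) carried H3K4me3 in both pregnant lists and not in CD15M_CM, where they also lacked H3K27ac by selection. Their nearest genes included LOC110261499, LOC102162379, THRSP, CMTM7, MAPKAPK3, GFOD2 and GBP1. The region at chr13:18374081-18374594 lay in CMTM7, a gene of the chemokine-like factor family. Its overlapping H3K4me3 peaks had a fold enrichment of 4.97 in GD15M_CM (885 bp long) and 27.6 in GD15M_LM (3583 bp long). The region at chr9:12467293-12468025 lay 11888 bp from THRSP, a gene of lipid synthesis, with 11.0 and 13.4. At MAPKAPK3, a kinase gene downstream of p38, the H3K4me3 values were 3.47 and 2.92. CD15M_CM H3K27ac peaks lay 205 to 1374 bp from the LOC102162379, CMTM7, MAPKAPK3, GFOD2 and GBP1 regions, and 79666 and 22933 bp from the LOC110261499 and THRSP regions.

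Genes of immunity were few among the nearest genes but included 3 genes of MHC class II presentation: CD74, SLA-DOA and CIITA. Lists of interferon signalling, interferon-stimulated, antigen presentation, T and NK cell, B cell, myeloid, chemokine, interleukin, innate sensing and complement genes placed 345 genes on these chromosomes. For 8 of them (2.32%) a pregnant-shared region was nearest, against 287 of all 28073 RefSeq genes (1.02%). Counted by region this is 8 of 301 (2.66%, interval 1.35 to 5.16%), against 1.22% of all 25160 peaks and 1.54% of peaks in neither list. Of the placed immune genes, 47.0% had some GD15M_CM peak of this strength nearest to them, as did 41.2% of all genes. Antigen presentation had 3 of its 29 placed genes, interferon-stimulated genes 2 of 46, and interferon signalling, T and NK cell and complement genes 1 each. The B cell, myeloid, chemokine, interleukin and innate sensing lists had 0.

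CD74 encodes the invariant chain that escorts MHC class II molecules to the compartment where peptides are loaded. Its region, chr2:151408842-151410534, overlapped an end of the gene and was 1693 bp long, with an H3K27ac fold enrichment of 5.32 in GD15M_CM and 5.39 in GD15M_LM. The CD15M_CM list had H3K27ac near the ends of CD74 as well, at most 3.37-fold, and its nearest peak was 979 bp from the region. H3K4me3 over the region was 17.2-fold in GD15M_CM, 20.2-fold in GD15M_LM and 8.21-fold in CD15M_CM, at percentiles of 83.9, 80.8 and 63.4. The same H3K4me3 site was thus present in all 3 groups and ranked lowest in the cyclic muscle.

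SLA-DOA encodes the alpha chain of the pig MHC class II DO molecule, which tunes peptide loading. Its region, chr7:25182137-25182746, lay at an end of the gene, with an H3K27ac fold enrichment of 4.84 in GD15M_CM and 4.38 in GD15M_LM. CD15M_CM had no H3K27ac peak within 3 kb of either end of SLA-DOA, the nearest being 12213 bp from the region. H3K4me3 was 13.8-fold, 12.7-fold and 5.60-fold in GD15M_CM, GD15M_LM and CD15M_CM, at percentiles of 76.1, 66.5 and 56.9.

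CIITA encodes the transactivator that switches on MHC class II genes. Its region, chr3:32218047-32220692, lay in the gene body and was the longest of the 301, at 2646 bp, with an H3K27ac fold enrichment of 5.10 in GD15M_CM and 2.65 in GD15M_LM. The nearest CD15M_CM H3K27ac peak was 40933 bp away. The longitudinal peak was weak, at percentile 8.43 of its list, and covered 24.4% of the region. H3K4me3 was 16.1-fold in GD15M_CM, 7.09-fold in GD15M_LM and 5.80-fold in CD15M_CM. In percentiles this was 81.4, 55.5 and 57.8, so only the circular muscle of pregnancy ranked above the cyclic muscle. Within 3 kb of the ends of CIITA, H3K27ac peaks were listed in GD15M_CM only, at most 3.20-fold (percentile 37.3). H3K4me3 there was 4.82-fold in GD15M_CM and 2.66-fold in GD15M_LM, with no peak in CD15M_CM.

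SOCS1 encodes an inhibitor of JAK signalling from interferon and cytokine receptors. Its region, chr3:31891259-31893472, was 8218 bp from the gene and 2214 bp long, with an H3K27ac fold enrichment of 5.51 in GD15M_CM and 4.502 in GD15M_LM and a CD15M_CM peak at 633 bp. H3K4me3 over it was 12.7-fold, 10.3-fold and 7.04-fold, at percentiles of 73.5, 62.1 and 61.2. Around the ends of SOCS1 itself the strongest H3K27ac peaks were 4.74-fold, 7.22-fold and 3.16-fold in GD15M_CM, GD15M_LM and CD15M_CM, at percentiles of 83.5, 94.99 and 35.9. The strongest H3K4me3 peaks there were closer in rank, at 16.6-fold, 22.3-fold and 17.2-fold and percentiles of 82.4, 84.6 and 77.9. CIITA, SOCS1 and CD74 were among the 5 longest of the 301 regions, with LOC110255361 at 1987 bp and LOC110255811 at 1740 bp.

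In H3K27ac at their ends, the interferon-stimulated genes were less clearly set apart from the cyclic muscle. GBP1 encodes an interferon-induced GTPase, and its region, chr4:127424205-127425175, lay 524 bp from an end of the gene with an H3K27ac fold enrichment of 4.11 in GD15M_CM and 3.77 in GD15M_LM, 205 bp from a CD15M_CM peak. H3K4me3 overlapped it at 7.16-fold in GD15M_CM and 26.1-fold in GD15M_LM and not in CD15M_CM. These are values of whole peaks, 934 bp long in GD15M_CM and 5964 bp long in GD15M_LM. The longitudinal peak was also the only H3K4me3 peak listed in GD15M_LM near the ends of GBP1. The strongest H3K27ac peak near the ends of GBP1 was nevertheless 6.32-fold, 6.92-fold and 6.43-fold in the 3 groups, at percentiles of 95.3, 93.6 and 96.0. The strongest H3K4me3 peak there was 26.2-fold, 26.1-fold and 17.2-fold in GD15M_CM, GD15M_LM and CD15M_CM. Its percentiles were 96.8, 90.6 and 77.9, so that mark ranked lowest in the cyclic muscle.

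IFITM1 encodes an interferon-induced membrane protein that limits virus entry. Its region, chr2:121033-121580, lay 2515 bp from the gene with 4.43 in GD15M_CM and 2.41 in GD15M_LM. The longitudinal peak stood at percentile 2.465 of its list. H3K4me3 over the region was 5.65-fold in GD15M_CM and 4.35-fold in CD15M_CM, with no peak in GD15M_LM. The strongest H3K27ac near the ends of IFITM1 was 6.76-fold, 6.82-fold and 6.56-fold in GD15M_CM, GD15M_LM and CD15M_CM, at percentiles of 96.6, 93.2 and 96.5, so the ends of the gene ranked high in all 3 lists.

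The last immune regions lacked H3K4me3. LAT, an adaptor of T cell receptor signalling, had a region 7890 bp away at chr3:18652243-18652862, with 4.43 in GD15M_CM and 3.32 in GD15M_LM, and no list had an H3K27ac peak within 3 kb of the ends of LAT itself. CFI, a protease that inactivates complement, had a region in its body at chr8:112436760-112437160, with 4.16 and 3.11. Around the ends of CFI the order was the opposite, with H3K27ac of 7.74-fold in CD15M_CM (percentile 98.8) against 3.18-fold in GD15M_CM and 3.41-fold in GD15M_LM (36.1 and 35.7).

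The SOCS1 and CIITA regions belong to the window of 2 Mb with most pregnant-shared regions. Between 31337977 and 32266133 on chromosome 3, 6 of the 35 GD15M_CM peaks of fold enrichment 4 or more had the pattern (17.1%). Over the full 2 Mb it was 6 of 48 (12.5%, against 1.2% overall). Their nearest genes were ZC3H7A, RMI2, SOCS1, CLEC16A, CIITA and LOC106509696, and 3 of the 6 had H3K4me3 in all 3 lists. The stretch was found by counting the regions, so its share is a description. CD15M_CM peaks were within 1657 bp of 4 of the 6, and the other two, at CIITA and LOC106509696, had none within 22901 bp.

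**Figure D5:**
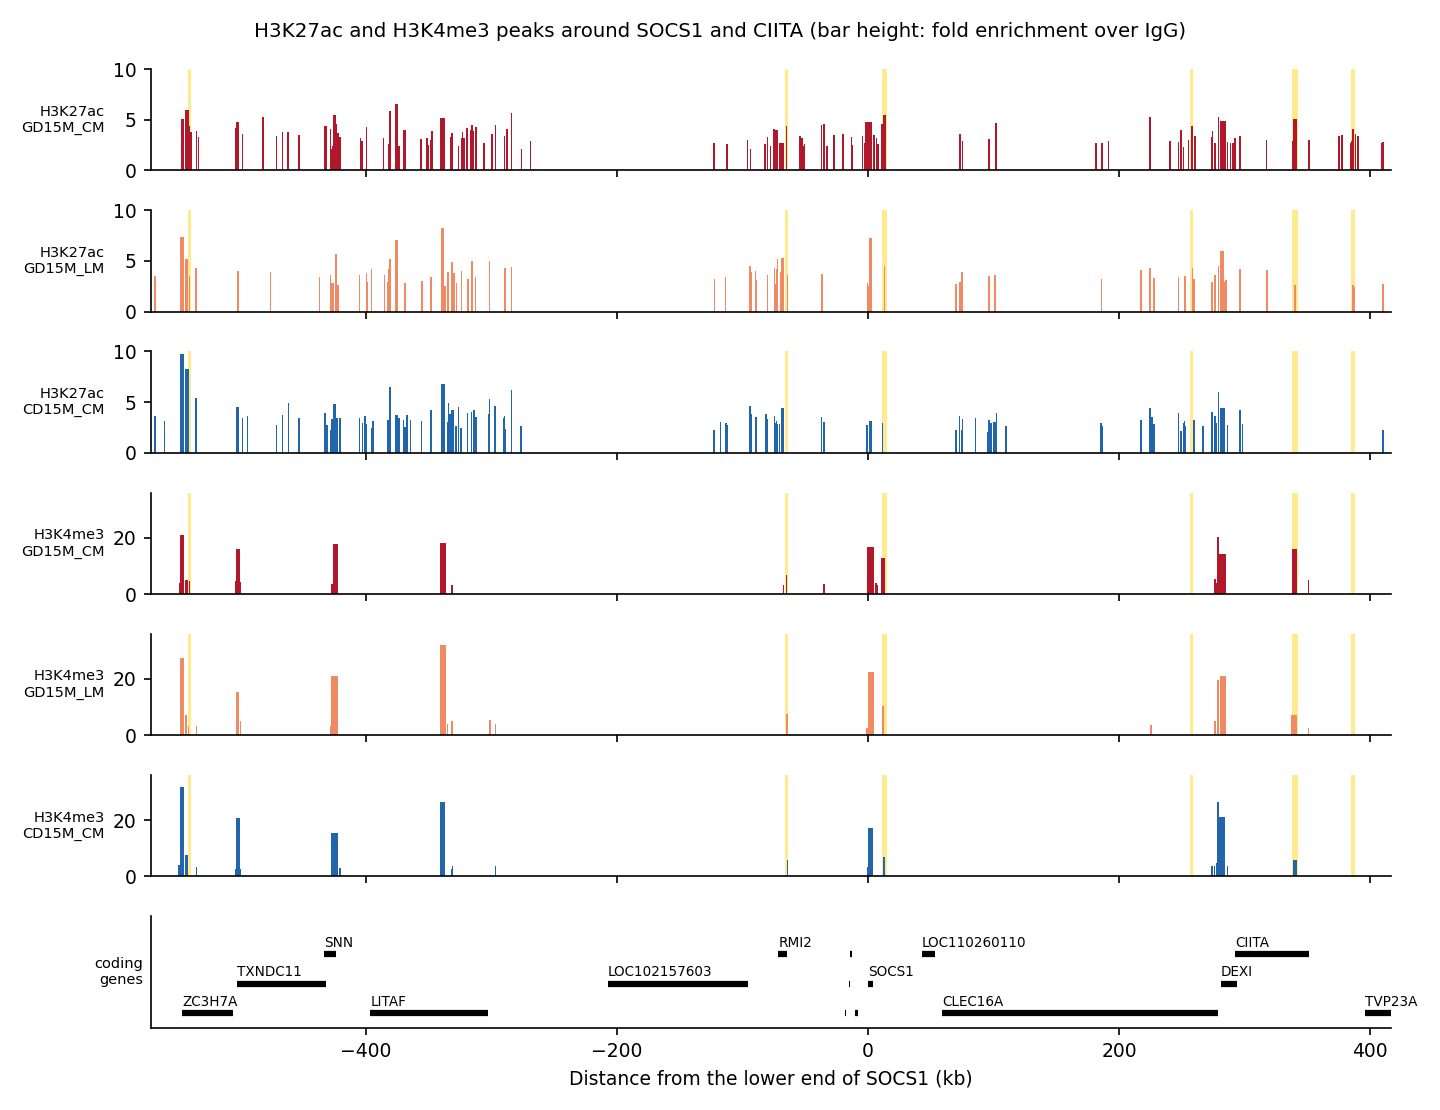
Peaks of the 6 lists along the SOCS1 and CIITA stretch of chromosome 3, with distance from the lower-coordinate end of SOCS1 in kb on the x axis and bar height giving fold enrichment over IgG; yellow bands mark the 6 pregnant-shared regions and black bars the protein-coding genes, and narrow bars and bands are widened to be visible. At the CIITA band H3K27ac bars are present in GD15M_CM (5.10) and GD15M_LM (2.65) and missing in CD15M_CM, while H3K4me3 bars are present in all 3.

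The SLA genes on chromosome 7, the pig MHC, and the stretch before them were looked at after their regions were seen. Between 22824137 and 25182665, from the first to the last of 14 placed SLA genes, 3 of 131 peaks (2.29%) had the pattern, with nearest genes LOC110261499, LOC100153139 and SLA-DOA. Before the first SLA gene, from 21626084 on, there were 4 more, nearest to LOC100525821, LOC100520389, UBD and TRIM31. From 21626084 to 25182746, 7 of 157 peaks (4.46%) had the pattern, against 1.2% of all 25160 peaks. The stretch was bounded by its own regions, so its share is a description. All 7 overlapped H3K4me3 in at least 1 list and 5 did so in all 3. Of all 25160 peaks, 36.7% overlapped H3K4me3 in none of the lists and 51.2% in all 3. The strongest, chr7:24873017-24873824 at LOC110261499, had an H3K27ac fold enrichment of 6.65 in GD15M_CM and 2.41 in GD15M_LM and was 79666 bp from the nearest CD15M_CM peak. UBD, an interferon-inducible ubiquitin-like modifier, had a region of 4.12 in GD15M_CM and 3.87 in GD15M_LM with H3K4me3 in GD15M_CM only.

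The other gene lists had at most 1 gene each with a region nearest to it, as did the interferon signalling, T and NK cell and complement lists, and the share over all RefSeq genes was 1.02%. Of 49 placed genes of smooth muscle contraction, 1 (2.04%), PPP1R12A, the targeting subunit of myosin phosphatase, had a pregnant-shared region nearest, with 4.14 in GD15M_CM and 2.92 in GD15M_LM. Of 42 steroid and prostaglandin genes, 1 (2.38%) had one: NCOA2, a coactivator of steroid receptors, with 4.29 and 3.01. Of 21 endothelial genes, 1 (4.76%) had one: ERG, an endothelial transcription factor, with 4.55 and 4.52 at 73091 bp. The AP-1, uterine epithelium, stroma and mesothelium lists had 0. Of all GD15M_CM peaks of this strength, 204 were nearest to a smooth muscle contraction gene, 167 of them present in all 3 lists.

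Marker genes of other cells were marked to different extents in the 3 groups. Within 3 kb of an end, H3K27ac peaks were listed for 43, 46 and 47 of the 49 smooth muscle genes in GD15M_CM, GD15M_LM and CD15M_CM. For 42 T and NK cell markers the counts were 19, 13 and 12 with H3K27ac and 33, 30 and 24 with H3K4me3, and the mean H3K4me3 percentile over the list, with 0 for a gene without a peak, was 42.5, 35.8 and 29.8. For H3K27ac the mean was 24.6, 14.1 and 16.1, with pregnant longitudinal muscle below the cyclic muscle. Marker by marker, H3K4me3 ranked higher in both pregnant lists than in CD15M_CM for 18 of the 42 and lower in both for 4, and H3K27ac higher in both for 6 and lower in both for 6. For H3K27ac, the 6 higher in both were CD5, CD7, LCK, FOXP3, TCF7 and TIGIT. The 6 lower in both were CD4, GZMH, NKG7, EOMES, LEF1 and IL2RB. Of the genes that define T cells, CD3D and CD3E had no H3K27ac peak in any list, and CD3G and CD2 had one in GD15M_CM only. CD3D, CD3E, CD3G and CD2 each had an H3K4me3 peak in every list. For 10 B cell markers the mean H3K4me3 percentile was 14.6, 20.6 and 22.1, with MS4A1 at 0 in all lists, and that of H3K27ac 6.54, 11.5 and 20.6. For 25 myeloid markers the means were 38.5, 43.8 and 40.4 for H3K4me3 and 29.4, 17.4 and 29.6 for H3K27ac. For 22 epithelial markers they were 74.2, 50.6 and 71.7 for H3K4me3 and 77.2, 36.3 and 65.2 for H3K27ac. In every list but T and NK cell, more markers ranked lower in both pregnant lists for H3K4me3 than higher in both. The counts, higher first, were 2 and 15 of 21 endothelial and 2 and 12 of 21 stroma and mural markers. They were 3 and 8 of 25 myeloid, 0 and 7 of 22 epithelial and 11 and 18 of 49 smooth muscle markers. For B cell and mesothelial markers they were 0 and 2 of 10 and 0 and 2 of 9. H3K27ac did not repeat this split, with 4 of 21 endothelial markers higher in both pregnant lists and 1 lower in both. The endothelial mean H3K27ac percentile was 23.8, 15.0 and 15.5, with groups ordered as before. Counts were equal for T and NK cell (6 and 6), epithelial (5 and 5) and mesothelial markers (1 and 1). More were lower for smooth muscle (11 and 24) and stroma and mural markers (4 and 11). The same held for myeloid (2 and 5) and B cell markers (0 and 3). The part of T and NK cells in the regions near CD74, SLA-DOA, CIITA and LAT was not tested, and in bulk tissue more cells of a type and more mark per cell cannot be told apart.

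By chromosome, the share of peaks with the pattern ran from 0.31% on chromosome 15, with 3 regions, to 2.04% on X, with 6. The largest numbers were 33 on chromosome 1, 30 on chromosome 7 and 29 on chromosome 6.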

How the data were processed

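CUT&Tag libraries of H3K27ac and H3K4me3 from 2 gilts per group were mapped by the authors to Sus scrofa 11.1 with BWA 0.7.17-r1188, filtered with SAMtools 1.9 and Picard 2.8.3, pooled, and called with MACS2 2.2.6. The deposited fold enrichment is the caller's ratio of mark over background, written here as over IgG. The paper names IgG as the control of its normalized signal and does not say which control the caller used. For each mark and group 1 list (6 lists) was used. The columns with unreadable names were not used. Depth is unknown from the lists, and the read numbers per library that the study gives were not used here.

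Overlap of at least 1 bp, distances, clusters (gaps under 50 kb) and percentiles were computed in Python 3.11.15 with pandas 2.3.3 and NumPy 2.4.6, and figures were drawn with Matplotlib 3.10.9. The interval code was checked on 3200 simulated queries, with 0 wrong. Genes were RefSeq models of the same assembly without strand, so either gene end replaced the planned gene start. No sequence is printed, since the genome was not used here. No test was possible on pooled lists.

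Regions named were the 10 of highest GD15M_CM and 5 of highest GD15M_LM fold enrichment, those nearest to listed immune genes, the 5 largest clusters, up to 10 with H3K4me3 in both pregnant lists only, the 5 longest, and up to 4 per other list. The values of 1 region that this rule names are not reported here. The regions, the gene lists and this rule were chosen with earlier results of these data known.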

Additional observations from a re-analysis of the deposited data

Results flagged for a closer look

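Regions on unplaced scaffolds, which the comparisons left out, held 269 GD15M_CM H3K27ac peaks of fold enrichment 4 or more, and 3 of them (1.12%, against 1.2% on the chromosomes) overlapped a GD15M_LM peak and no CD15M_CM peak. They are given because they lie in sequence not otherwise examined. Absence from the cyclic list is part of how they were selected. Their fold enrichments in GD15M_CM were 6.08, 4.93 and 4.197, and in GD15M_LM 4.579, 3.202 and 2.172. The first of them also overlapped H3K4me3 peaks of 8.56-fold in GD15M_CM and 10.1-fold in GD15M_LM.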

How the results depend on the processing

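The number of pregnant-shared regions, 301, depended on each limit: 68 with a fold enrichment of at least 5, 187 with at least 50% of the region covered by longitudinal peaks, 179 with no CD15M_CM peak within 1 kb, 112 with longitudinal peaks of at least 4 only, and 1533 when only CD15M_CM peaks of at least 3 counted. It was 298 with regions less than 1 kb apart counted as 1, and 282 when the longitudinal peak also had to be free of CD15M_CM peaks, an alternative chosen after seeing the data. The share with GD15M_CM H3K4me3 stayed between 25.7% and 30.9% in 5 alternatives, and was 20.6% with H3K4me3 peaks of at least 5 only. The share near a gene end was 15.6% with a 1 kb window and 19.6% with protein-coding genes only, 26.6% to 28.0% with distances from the centre or without the 12 strongest regions (added after seeing the data), and 17 of 68 regions at a fold enrichment of at least 5. Of the 8 immune genes, CD74, CIITA and SOCS1 (3) remained at a fold enrichment of at least 5, and CFI, CIITA, IFITM1, LAT and SLA-DOA (5) with no CD15M_CM peak within 1 kb. CD74, CFI and IFITM1 (3) remained with at least 50% longitudinal cover, and CD74, SLA-DOA and SOCS1 (3) with longitudinal peaks of at least 4, so CIITA was lost in both. With protein-coding genes only there were 9, CXCL13 being added. No paired analysis was possible because the lists pool the gilts, and leaving out 1 gilt was not possible for the same reason. Only fold enrichment within a list could be ranked, and depth could not be judged from the lists.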
